A study of Mus musculus with 8 samples.

Results

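Acyl-CoA synthetases are the enzymes that join a fatty acid or acetate to coenzyme A, and 8 genes of this group were followed: the long-chain synthetases Acsl1, Acsl3, Acsl4, Acsl5 and Acsl6, the acetate-activating enzymes Acss1 and Acss2, and Acsf2. All probes that the array annotation gives to these genes, by symbol or synonym, were taken. They were 14 of the 25697 probes on the array and stood for 6 of the 8 genes, among 16593 genes with a probe in all. No probe in the array annotation was matched to Acsl1 or Acsf2, so these genes were not analysed here. The study profiled whole hearts from 8 mice of 2 months on the C57BL/6J background, using 1 Illumina bead array per heart. In 4 mice a transgene expressed a doxycycline-inducible short hairpin RNA against Taz, the gene of tafazzin, and the other 4 were wild-type littermates without it. Doxycycline was fed to both groups at 625 mg/kg of diet, so the drug is shared, while effects of the transgene and of lower Taz cannot be told apart. The sources used here do not give the promoter that drives the hairpin or the sex of the mice.

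Before a fatty acid can be burned or built into a membrane or a droplet of fat, it has to be made into acyl-CoA, and acyl-CoA synthetases do this at the cost of ATP through an acyl-adenylate intermediate. The long-chain enzymes sit on the outer mitochondrial membrane, the endoplasmic reticulum and lipid droplets, and differ in the fatty acids they prefer. The heart draws most of its energy from long-chain fatty acids. Tafazzin, the target of the hairpin, exchanges acyl groups on cardiolipin, a lipid characteristic of the mitochondrial inner membrane, and its loss in people causes Barth syndrome.

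Of the 14 probes, 6 were detected on at least 4 of the 8 arrays (detection p under 0.05 against the negative control beads) and were tested. They stood for 4 genes, Acsl5, Acsl6, Acss1 and Acss2. Among them 1 probe of Acsl6 fell in the knockdown hearts, none rose and 5 did not pass the threshold (limma, Benjamini-Hochberg adjusted p under 0.05 over all 9397 tested probes). Over all tested probes 6.58% were called, 3.16% lower (297 probes) and 3.42% higher (321). With median centring of the arrays these became 77 lower and 174 higher, and the same Acsl6 probe was the one called. At an unadjusted p under 0.05, 2 of the 6 probes were lower and 0 were higher. The share of all tested probes at that threshold was not computed here, so these counts have no background to be read against. The values of all 6 were negative, with a median of -0.20 on the log2 scale, where 51.5% of all tested probes were negative and their median was -0.0094.

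The hairpin's target was low in every knockdown heart. The brighter Taz probe had deposited signals of 539, 639, 477 and 516 in wild-type hearts 1 to 4 and 69.9, 68.1, 53.3 and 59.5 in knockdown hearts 1 to 4, a decrease of 7.34-fold after normalization (limma adjusted p = 1.11e-07). The other Taz probe, ILMN_2696855, was detected in 4 wild-type hearts and 1 knockdown heart, and its difference of -1.56 on the log2 scale (adjusted p = 0.000330) ran from -2.27 with an offset of 1 to -0.95 with an offset of 50. The arrays detected between 8935 and 10183 probes each, and normalized levels of the tested probes correlated at 0.971 to 0.990 between any 2 hearts. Of 7 ventricular muscle markers with a probe, 6 were detected on at least 4 arrays, among them Myh6, Myl2 and Tnni3. Each array carries its own mouse number in the labels, and having 4 arrays a group limits the precision of every value.

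Acsl6, on chromosome 11, activates long-chain fatty acids and is best known from the brain, where it favours docosahexaenoic acid, a long polyunsaturated fatty acid. It carried the one called change of the group. RefSeq annotates 3 transcription starts to the gene, the second lying 380 bases and the third 11079 bases downstream of the first. Because its probes are annotated to different transcripts, the sequence around each start is shown (GRCm38.p6, 250 bases before to 50 bases after the start, plus strand), with matches to a searched motif in capitals. The sources used here do not say which start the transcript behind each probe uses.

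Acsl6 start 1, chr11:54303574-54303873: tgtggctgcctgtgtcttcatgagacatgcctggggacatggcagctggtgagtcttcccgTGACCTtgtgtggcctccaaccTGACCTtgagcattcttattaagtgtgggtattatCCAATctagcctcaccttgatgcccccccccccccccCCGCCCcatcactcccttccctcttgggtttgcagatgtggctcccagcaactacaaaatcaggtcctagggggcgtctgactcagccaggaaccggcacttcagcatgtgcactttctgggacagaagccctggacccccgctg
Acsl6 start 2, chr11:54303954-54304253: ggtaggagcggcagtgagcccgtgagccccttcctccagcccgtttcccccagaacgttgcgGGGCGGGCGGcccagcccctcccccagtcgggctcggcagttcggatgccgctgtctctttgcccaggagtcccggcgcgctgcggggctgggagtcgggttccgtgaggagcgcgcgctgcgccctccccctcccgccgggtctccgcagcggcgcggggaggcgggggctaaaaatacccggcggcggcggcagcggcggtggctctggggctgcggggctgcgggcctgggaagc
Acsl6 start 3, chr11:54314653-54314952: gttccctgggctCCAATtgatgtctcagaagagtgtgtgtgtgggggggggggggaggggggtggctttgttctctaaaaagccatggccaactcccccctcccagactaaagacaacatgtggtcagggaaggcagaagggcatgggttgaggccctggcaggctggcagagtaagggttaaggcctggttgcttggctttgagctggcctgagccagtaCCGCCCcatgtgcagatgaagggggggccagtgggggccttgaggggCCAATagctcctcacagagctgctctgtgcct

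The searched motifs were the TATA box TATAAA, the CCAAT box CCAAT, the GC box GGGCGG, the E-box CACGTG, the nuclear receptor half-site AGGTCA and the amino acid response element core TGATGNAA, each on both strands. The first window held 2 nuclear receptor half-sites, which begin 189 and 167 bases before the start and are read on the minus strand, and no such half-site lay in the other windows. Among 32851 RefSeq promoter windows of the same length 16.3% hold at least 1. The first window also held 1 CCAAT box and 1 GC box, the second a pair of overlapping GC boxes, and the third 2 CCAAT boxes and 1 GC box (37.4% of all windows hold a CCAAT box and 35.7% a GC box). The TATA box, the E-box and the amino acid response element core were matched in none of the 3 windows (13.6%, 7.15% and 3.97% of all windows). The windows differed in CpG content: the second held 36 CpG pairs, more than 93.8% of all windows do, the first 5 and the third 1.

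The Acsl6 probe that fell, ILMN_3125814, is annotated to the transcript NM_001033597. Its deposited signals were 86.6, 98.4, 88.9 and 93.2 in wild-type hearts 1 to 4, a mean of 91.8 ± 5.18 (SD, n = 4). In knockdown hearts 1 to 4 they were 35.1, 20.6, 13.5 and 9.16, a mean of 19.6 ± 11.3 (SD, n = 4). The groups were separated by a wide gap, with the wild-type hearts close together and the knockdown hearts low and more spread. The probe was detected in all 4 wild-type hearts but in 2 of the 4 knockdown hearts (1 and 2), and was not above background in knockdown hearts 3 and 4. In whole heart tissue, fewer cells that hold the transcript and less of it per cell cannot be told apart.

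On the normalized log2 scale the level of this probe went from 6.77 ± 0.18 (SD, n = 4) in wild-type hearts to 5.14 ± 0.26 (SD, n = 4) in knockdown hearts. The difference of -1.63 ± 0.146 (SE) corresponds to a 3.10-fold decrease (95% interval from 2.48 to 3.87, limma adjusted p = 5.96e-05). An exact permutation test over the hearts gave p = 0.0286, the smallest that 70 assignments allow. The size depended on the offset added before the log2 step: the difference was -2.24 with an offset of 1, -1.63 with the offset of 16 used here and -1.05 with an offset of 50. With the undetected values raised to the lowest detected level of their arrays it was -1.53. It passed with any one heart left out, between -1.74 and -1.54.

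The other Acsl6 probes are both annotated to NM_144823 and were at or near background in both groups. ILMN_1236666 had deposited signals of 27.8, 17.6, 24.6 and 25.3 in wild-type hearts and 34.1, 21.2, 16.5 and 14.0 in knockdown hearts. These groups overlap, and the highest signal of all was in knockdown heart 1. The probe was detected in 3 hearts of each group, and its difference of -0.12 ± 0.128 (SE) did not pass (limma adjusted p = 0.659). Its wild-type level of 5.33 on the log2 scale was close to background already, so a fall of the size seen by ILMN_3125814 could not have been measured with it. ILMN_2621697 was detected on no array, with signals between -9.75 and 11.7.

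**Figure D1:**
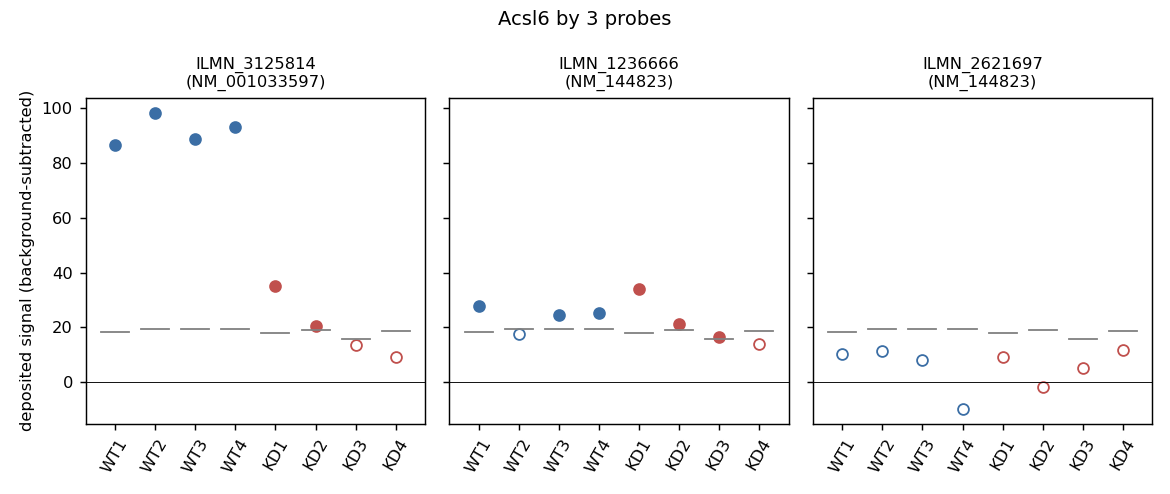
Deposited background-subtracted signal (y axis) of the 3 Acsl6 probes in wild-type hearts (WT1 to WT4, blue) and Taz knockdown hearts (KD1 to KD4, red). Filled points were detected at p under 0.05, open points were not, and each grey bar is the lowest detected signal of that array. In the left panel the wild-type hearts lie between 86.6 and 98.4 and the knockdown hearts between 9.16 and 35.1, while in the other panels the groups overlap.

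The 2 tested Acsl6 probes were also set against each other within each array. The log2 ratio of ILMN_3125814 to ILMN_1236666 was 1.17 to 1.70 in the wild-type hearts and -0.16 to 0.03 in the knockdown hearts, without overlap. The group means of this ratio differed by -1.51 on the log2 scale and by -0.98 with an offset of 50, with an exact permutation p = 0.0286 (the smallest possible) and 0.0571 adjusted over the 2 genes with such a pair, above 0.05. Because ILMN_1236666 had little room to fall, this ratio largely restates the decrease of ILMN_3125814 and does not show whether the annotated transcripts changed unequally. Averaged over both tested probes, Acsl6 stood at -0.88 ± 0.127 (SE), a 1.84-fold decrease that passed (limma adjusted p = 0.00187).

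Acss1 makes acetyl-CoA from acetate in the mitochondrial matrix. Its single probe, ILMN_2628174 on chromosome 2, was bright, with deposited signals of 1922, 1942, 1556 and 2036 in wild-type hearts and 2290.5, 2173, 1559 and 1385 in knockdown hearts. The groups overlap fully, and the knockdown hearts hold both the highest and the lowest signal. The difference was -0.07 ± 0.116 (SE) on the log2 scale (limma adjusted p = 0.803), with a 95% interval from a 1.25-fold decrease to a 1.14-fold increase. The level lay above that of 95.3% of all tested probes.

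Acss2 makes acetyl-CoA from acetate in the cytosol and nucleus. Its brighter probe, ILMN_2734181 on chromosome 2, had deposited signals of 376, 342, 273 and 394 in wild-type hearts and 332, 302, 289.9 and 242 in knockdown hearts. After normalization the knockdown hearts (8.16 to 8.28 on the log2 scale) all lay below the wild-type hearts (8.42 to 8.65), although the deposited signals overlap. The difference was -0.28 ± 0.0982 (SE), a 1.21-fold lower level with a 95% interval of 1.05 to 1.41, and it did not pass over all probes (limma adjusted p = 0.129). Groups that do not overlap in this direction occurred in 7.65% of all tested probes and in the other direction in 6.98%; among the 6 synthetase probes they occurred for 2 and 0. The dimmer probe, ILMN_1231116, had overlapping groups, with a mean signal of 28.6 ± 6.01 (SD, n = 4) in wild-type and 25.3 ± 4.24 (SD, n = 4) in knockdown hearts, and stood at -0.13 ± 0.116 (SE, limma adjusted p = 0.606). The changes of the 2 Acss2 probes differed by -0.15 on the log2 scale (exact permutation p = 0.371), with the dimmer probe close to background.

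Acsl5 activates long-chain fatty acids on mitochondria and the endoplasmic reticulum and is best known from intestine and liver. Its single probe, ILMN_2892222 on chromosome 19, had deposited signals of 435, 394, 305 and 542 in wild-type hearts and 464, 255, 358 and 306 in knockdown hearts. The groups overlap, with wild-type heart 4 the highest and knockdown heart 2 the lowest. The difference was -0.32 ± 0.158 (SE) on the log2 scale, with a 95% interval from a 1.58-fold decrease to a 1.02-fold increase, and did not pass (limma adjusted p = 0.290). It was -0.20 without wild-type heart 4 and -0.18 without knockdown heart 2.

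**Figure D2:**
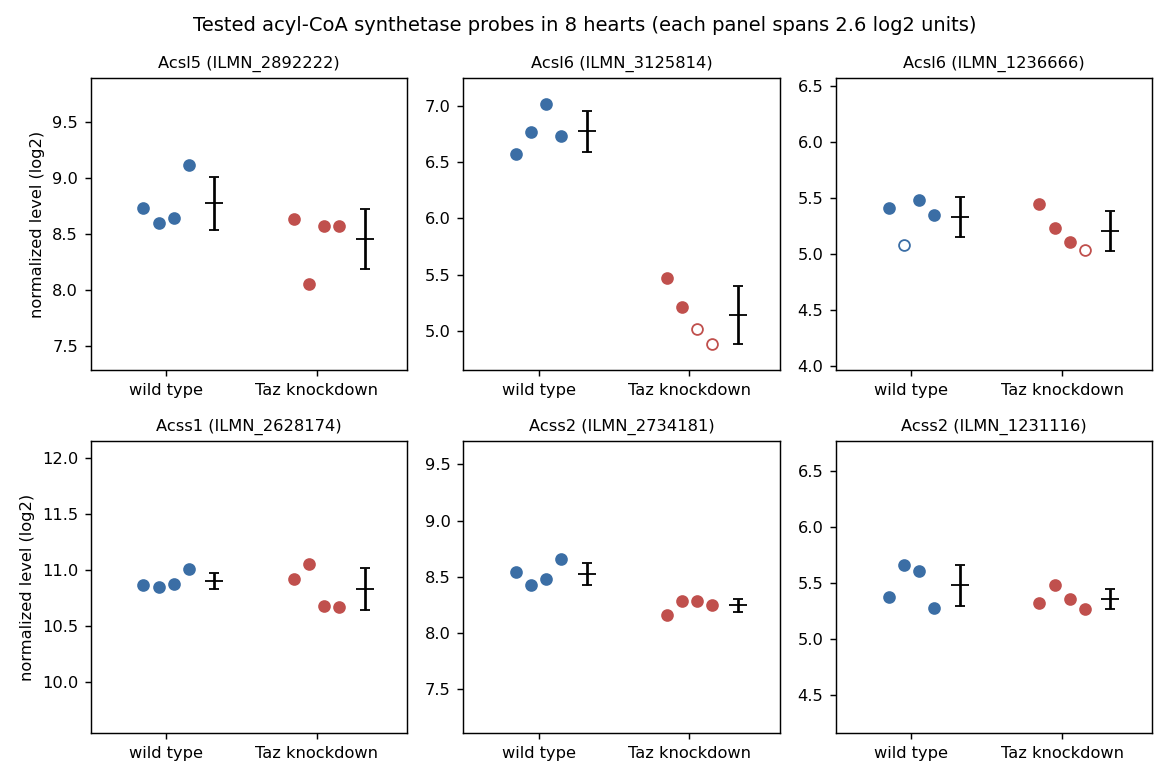
Normalized log2 level (y axis) of the 6 tested probes in the 4 wild-type (blue) and 4 Taz knockdown (red) hearts, with the mean and SD of each group in black. Open points were not detected at p under 0.05, and all panels span the same range. The groups are apart for Acsl6 ILMN_3125814 and, by a small gap, for Acss2 ILMN_2734181.

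Acsl3 is an enzyme of the endoplasmic reticulum and lipid droplets, and Acsl4 prefers arachidonic acid and other polyunsaturated fatty acids. Their probes read near background in these hearts, and whether the probes or the transcripts were weak was not tested. None of the 3 Acsl3 probes and none of the 4 Acsl4 probes was detected on 4 arrays. The Acsl3 probes were detected in 4 of 24 readings over the 8 arrays, with deposited signals from -4.52 to 32.2. Of these, ILMN_3138743 gave the highest signals, 32.2 and 24.3 in wild-type hearts 1 and 2. In knockdown heart 1 ILMN_3138743 gave 20.6 and ILMN_1259366 gave 20.7. The Acsl4 probes were detected in 1 of 32 readings, with signals from -17.9 to 27.0. That reading was knockdown heart 1 by ILMN_1244872. With no filter on dim probes, none of the 8 untested probes of the group passed, and no difference in these genes was detectable at this brightness.

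**Figure D3:**
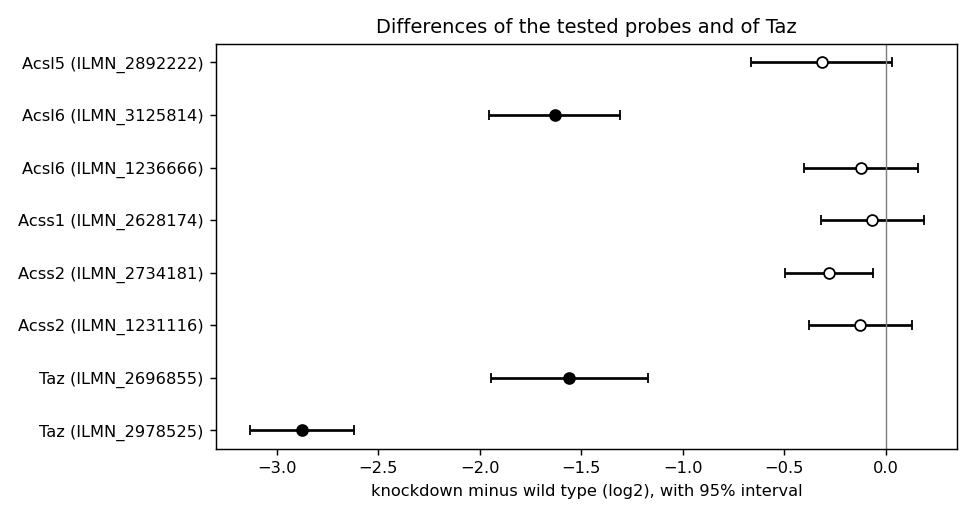
Difference of knockdown minus wild type on the log2 scale (x axis) with its 95% interval for the 6 tested acyl-CoA synthetase probes and the 2 Taz probes. Filled points passed the limma adjusted p of 0.05. Acsl6 ILMN_3125814 at -1.63 stands away from the other synthetase probes, which lie between -0.32 and -0.07.

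Whether the genes changed unequally was tested on log2 ratios within each array between the brightest tested probes of the 4 genes, 6 pairs in all. Acsl6 differed from Acss2 by -1.35 and from Acss1 by -1.56 in its change on the log2 scale, and Acsl5 from Acsl6 by 1.32, and the ratios of wild-type and knockdown hearts did not overlap in any of these pairs. The Acsl6 probe was not above background in 2 knockdown hearts, and with an offset of 50 these values were -0.79, -0.98 and 0.76. Each had an exact permutation p = 0.0286, the smallest possible, and 0.0571 adjusted over the 6 pairs, above 0.05. With only these 3 pairs at the smallest possible p, none of them could pass after adjustment. All 3 share the same Acsl6 probe, so they are not independent of its fall. The 3 pairs among Acsl5, Acss1 and Acss2 had adjusted exact permutation p-values of 0.171 to 0.886.

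The genes whose levels varied most like those of each synthetase from heart to heart were read from deviations from the group means, so that the group difference plays no part. For Acsl6 they were Cdkn2aipnl (Pearson correlation 0.970), Sirt5 (0.953) and Dipk1a (0.936) over the 8 hearts, and 0.131% of all genes were above 0.9. For Acsl5 they were Ndufs4 (0.983), F2r (0.973) and then Fbxo28. For Acss1 they were Magi3 (0.967), Mrpl24 (0.959) and Gga3 (0.949), and for Acss2 Samd4b (0.971), Lars2 (0.961) and Hsd17b7 (0.954). The share of all genes above 0.9 was 0.218% for Acsl5, 0.174% for Acss1 and 0.203% for Acss2. Each named gene is among the highest of all tested genes, and no p was computed. Such values can arise without a link between the genes. The Acsl6 probe was not above background in knockdown hearts 3 and 4, and knockdown heart 2 lay apart for Acsl5. The values describe 8 arrays, and genes of one array share its RNA and its normalization. Of these 12 genes Sirt5 passed the limma test of knockdown against wild type, at -0.40 (adjusted p = 0.0491). Over all tested genes 3.43% were called lower and 3.22% higher. The call of Sirt5 lies close to the threshold and was not followed under other processing settings.

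Other genes that activate fatty acids or other acids with coenzyme A were examined next, by the brightest tested probe of each gene. Over all 6889 tested genes 3.22% were called higher and 3.43% lower, 52.2% had negative values and the median was -0.01. Of 20 further acyl-CoA synthetase genes, all with a probe, 8 were tested and 0 passed in either direction (limma adjusted p), nor at an unadjusted p under 0.05. Their median was -0.08 and 7 of 8 values were negative, from -0.11 for Suclg2, a subunit of succinyl-CoA synthetase, to 0.28 for Aacs, which activates acetoacetate. Slc27a1, a fatty acid transport protein with synthetase activity that is known from muscle, stood at -0.07 (adjusted p = 0.859). The mitochondrial malonyl-CoA synthetase gene Acsf3 stood at -0.08 (adjusted p = 0.793).

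The genes that carry long-chain acyl-CoA into mitochondria and oxidise it had mostly negative values. Of 19 tested genes Acaa2, the thiolase at the end of the oxidation spiral, fell by 0.62 on the log2 scale at a limma adjusted p = 0.0334, none rose and 18 did not pass. At an unadjusted p under 0.05, 8 were lower and 0 higher, with no share of all genes computed at that threshold. The median was -0.19, and 17 of 19 values were negative. Over all tested genes 52.2% were negative and 3.43% were called lower. Cpt2, which turns acylcarnitine back into acyl-CoA inside the mitochondrion, stood at -0.34 (adjusted p = 0.0815) and the acylcarnitine carrier gene Slc25a20 at -0.32 (0.112). Cpt1b, the muscle enzyme that takes up the acyl-CoA made by the long-chain synthetases, stood at -0.18 (0.636). The call of Acaa2 was lost without any one of wild-type hearts 2, 3 and 4 and knockdown hearts 2 and 3, with adjusted p from 0.0778 to 0.0948 and values between -0.62 and -0.51. It was also lost with the authors' normalized values (adjusted p = 0.0501), median centring (0.172), an offset of 1 (0.0631), no filter (0.0668), the replicate block (0.0868) and without the array with fewest detected probes of each group (0.0821), and each of these left 0 genes of the list called. The number called lower was 5 with an offset of 50, 5 with an intensity trend in the variance prior and 4 with the stricter detection filter.

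Genes that use acyl-CoA to build glycerolipids went both ways. Of 12 tested genes Gpat3, a glycerol-3-phosphate acyltransferase of the endoplasmic reticulum, rose by 0.65 ± 0.109 (SE, log2) with a limma adjusted p = 0.00506. Lpin1, a phosphatidate phosphatase, fell by 0.73 ± 0.0954 (SE, adjusted p = 0.00105), and 10 did not pass (median -0.05). The mitochondrial and the other microsomal acyltransferases Gpam and Gpat4 stood at -0.08 and -0.0043, and the last enzymes of triglyceride synthesis, Dgat1 and Dgat2, at 0.15 and -0.16. The calls of Gpat3 and Lpin1 held under all 20 alternatives tried.

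Among 11 tested genes of acetyl-CoA supply and use, the product of Acss1 and Acss2, Dlat fell by 0.53 (log2, limma adjusted p = 0.0450) and 10 did not pass, with a median of 0.06. Dlat is the acetyltransferase core of the pyruvate dehydrogenase complex. Acly, which makes cytosolic acetyl-CoA from citrate, stood at -0.0043 and Acaca, acetyl-CoA carboxylase, at 0.47 (adjusted p = 0.239). Of 12 tested regulators of lipid genes, the sterol-sensing nuclear receptor gene Nr1h3 fell by 0.46 (adjusted p = 0.0496) and 11 did not pass, with a median of -0.02. Srebf2, a known activator of sterol genes, stood at -0.02, Pparg at -0.36 and Ppargc1a, a coactivator of oxidative genes, at 0.29. The calls of Dlat and Nr1h3 are at the edge: each was lost without any one heart other than wild-type heart 1, with adjusted p of 0.0586 to 0.112 for Dlat (-0.59 to -0.42) and 0.0884 to 0.129 for Nr1h3 (-0.48 to -0.40). Both were also lost with the authors' normalized values (limma adjusted p = 0.0602 and 0.0635), median centring, an offset of 1 and no filter. The same held without the array with fewest detected probes of each group. With the replicate block Nr1h3 was lost (0.0543) and Dlat was not. Of 20 alternatives, the call of Dlat held in 8 and that of Nr1h3 in 7.

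**Figure D4:**
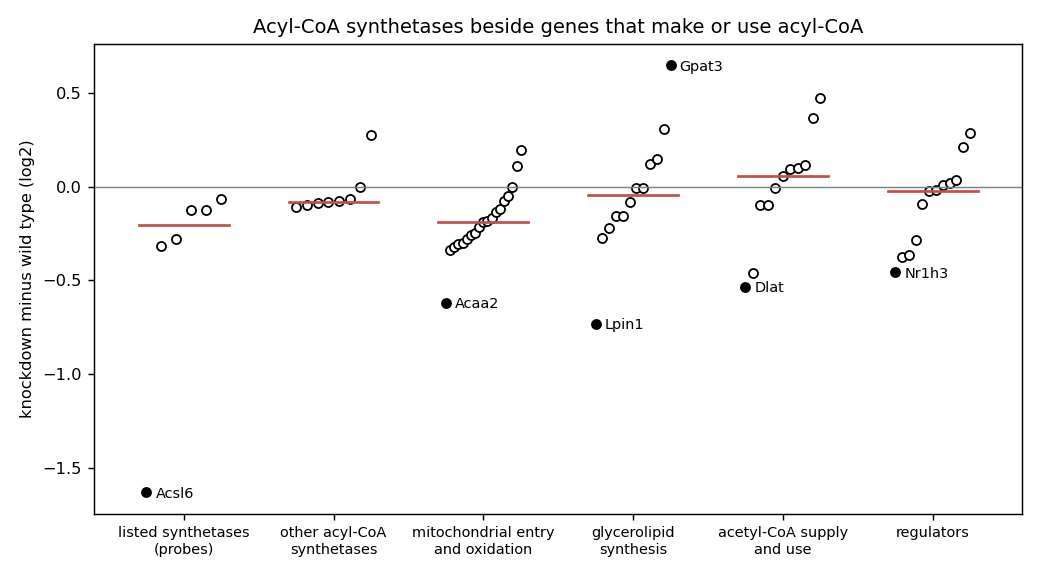
Difference of knockdown minus wild type on the log2 scale (y axis) for the 6 tested synthetase probes and for the brightest tested probe of each gene in 5 related lists. Filled, named points passed the limma adjusted p of 0.05 and red lines are medians. Acsl6 at -1.63 lies below every other point, and Gpat3 at 0.65 is the only filled point above 0.

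Markers of other cell types were read beside the fall of Acsl6, which is expressed in neurons and, in humans, in red cell precursors. Of 6 neuron markers 5 were detected on no array (Gap43, Rbfox3, Snap25, Syt1 and Tubb3) and none was tested, with summed deposited signals of 22.1 to 56.9 in wild-type and 10.7 to 49.6 in knockdown hearts. Of 6 red cell markers 4 had a probe, Hbb-b2 was detected on no array, and the 3 tested had positive values that did not pass (median 0.59). Of these 2 were higher at an unadjusted p under 0.05, Alas2 at 0.59 (adjusted p = 0.189) and Slc4a1 at 0.94 (adjusted p = 0.0583). The red cell markers had sums of 37004 to 47646 in wild-type and 38438 to 55682 in knockdown hearts. All 5 tested atrial markers had negative values (median -0.71), and none passed, while 4 were lower at an unadjusted p under 0.05. Their 6 signals summed to 31158 to 66798 in wild-type and 28173 to 40903 in knockdown hearts. Of 7 fat cell markers 6 had a probe, 3 of these (Cidec, Fabp4 and Plin1) were detected on no array, 1 was lower at an unadjusted p under 0.05, and the sums were 56.9 to 443 in wild-type and 55.9 to 96.5 in knockdown hearts. No share of all genes at an unadjusted p was computed to set beside these counts. The part of the atrial, red cell and fat cell markers in the result for Acsl6 was not tested.

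In the other marker lists, 1 gene passed. Acta1, a gene of skeletal muscle that adult hearts also express, rose by 1.49 (limma adjusted p = 0.000102), while the skeletal muscle genes Myh1, Myh4 and Tnnt3 were detected on no array. Ckm, the only other tested marker of this list, stood at 0.10 (limma adjusted p = 0.698). The 6 skeletal muscle markers summed to 6791 to 10129 in wild-type and 11560.4 to 18187 in knockdown hearts. These sums add deposited signals and so weigh bright markers most. Mean normalized log2 levels in wild-type and knockdown hearts were 11.1 and 12.6 for Acta1 and 12.8 and 12.9 for Ckm. None of the 6 ventricular, 4 endothelial, 4 fibroblast, 1 macrophage and 1 lymphocyte markers tested passed. At an unadjusted p under 0.05, 1 ventricular and 1 fibroblast marker were lower, again with no share of all genes computed.

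**Figure D5:**
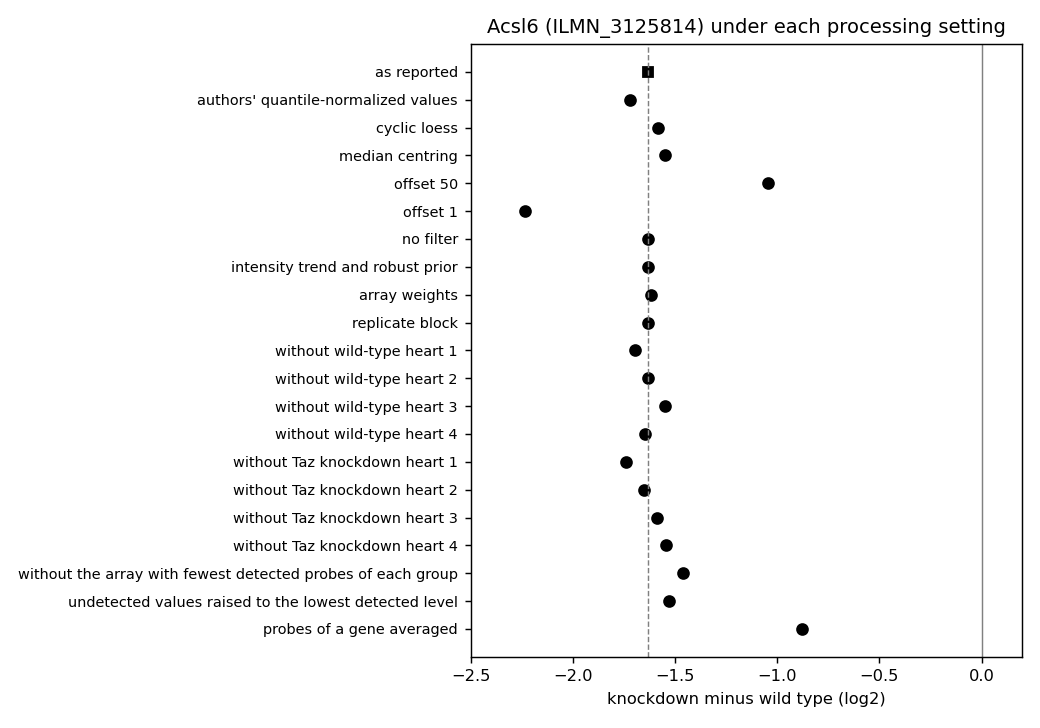
Difference of knockdown minus wild type on the log2 scale (x axis) of Acsl6 ILMN_3125814 as reported (square, dashed line) and under each other setting in which it was tested (points). All values lie below 0, from -2.24 with an offset of 1 to -0.88 with both tested Acsl6 probes averaged.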

How the data were processed

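RNA of 8 hearts was turned into biotin-labelled cRNA for Illumina arrays, per the labels' protocols. One deposited table, non-normalized per the file headers, holds an intensity for every probe on every array with background already subtracted (28.2% to 31.5% lie below 0). The deposited detection p-value moves in steps of 1 in 798. A second deposited table holds intensity values that are equal in their quantiles on all arrays, so it was taken as the authors' quantile-normalized version and used as an alternative. The sources used here do not name the software or the background method.

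Normexp correction from the detection p-values (offset 16), quantile normalization and a log2 transform were applied (limma 3.58.1, R 4.3.3). Probes with detection p under 0.05 on at least 4 of 8 arrays were tested with lmFit and eBayes, two-sided, with Benjamini-Hochberg adjustment over all 9397 tested probes. Such an offset understates changes of dim probes. The fit was tested on simulated data. Genes were named through the platform annotation, updated by Entrez number with RefSeq (23962 of 23978 probes with 1 gene). Promoter sequences are those of RefSeq, GRCm38.p6. Cross-hybridisation of probes was not checked. Samples were grouped and numbered by their GEO descriptions, since knockdown titles repeat a number. Permutation tests were exact and two-sided. The members, lists, tests and alternatives were chosen with earlier results of these data known. Named genes are all member probes, Taz, list genes that passed and the 3 genes most like each member, and further list genes and markers were chosen after their values were seen.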

Additional observations from a re-analysis of the deposited data

Results flagged for a closer look

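Among 16 groups of 4 hearts checked for a heart that lies apart (8 probes in 2 groups), 2 stood out by Dixon's test at its 95% critical value, where chance gives about 1 in 20 groups. Knockdown heart 2 had an Acsl5 level of 8.06 on the log2 scale, while the nearest other knockdown heart had 8.57. Wild-type heart 4 had an Acss1 level of 11.00, while the nearest other wild-type heart had 10.87. Without knockdown heart 2 the Acsl5 difference was -0.18, and without wild-type heart 4 the Acss1 difference was -0.03. Neither gene passed with or without these hearts.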

How the results depend on the processing

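The fall of Acsl6 by ILMN_3125814 kept its direction and passed under all 20 alternatives in which it was tested, counting its average with ILMN_1236666. The values ran from -2.24 to -0.88 on the log2 scale, with limma adjusted p from 1.20e-06 to 0.00187. The end at -0.88 is that average, and the smallest fall of the probe alone was -1.05, with an offset of 50. With detection p under 0.01 required on all arrays ILMN_3125814 was not tested, so 0 synthetase probes were called lower there because the filter removed it. No synthetase probe was called higher under any alternative. Acss2 ILMN_2734181 did not pass under any of 21 alternatives (adjusted p from 0.0702 to 0.748). Acsl6 ILMN_1236666 did not pass by itself in any setting, and only its average with ILMN_3125814 passed (-0.88). Over all probes, 321 were called higher and 297 lower, against 174 and 77 with median centring, where the share of increases is larger. The lower calls numbered 451 with an offset of 50 and 477 with an intensity trend and robust prior. They numbered 184 with the replicate number as a block, where Acsl6 ILMN_3125814 still passed (limma adjusted p = 0.00155). Deviations of same-numbered hearts correlated at 0.165, 0.0053, -0.093 and -0.0053, so the numbers were not taken as pairs. Without 1 heart the counts were 198 (without knockdown heart 2) to 262 higher and 184 to 256 lower; the lower calls were 189 without wild-type heart 4 and 184, 194 and 185 without knockdown hearts 1, 2 and 3. The counts without the array with fewest detected probes in each group were 193 higher and 167 lower (a setting chosen after seeing the data, as was raising undetected values). The cause of these shifts was not tested. The unequal change of Acsl5 and Acss2 (-0.04) ran from -0.12 to 0.11 without 1 heart, and turned positive without wild-type heart 4 (0.03) or knockdown heart 2 (0.11). Brightness limits Acsl3, Acsl4 and 2 probes of Acsl6 most.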
